A study of Homo sapiens with 8 samples.

Results

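The alkaline phosphatase genes ALPI, ALPP, ALPG and ALPL were followed across RNA-seq libraries of 2 human cell lines, HepG2 and Hep3B. The study describes both as hepatocellular carcinoma lines. These 4 genes, among 17253 genes with a transcript in 1 or more of the 8 libraries, were named by symbol, and ALPI was chosen by its measured fall in the libraries labelled Hep3B, so its changes there are a description and carry no test. HepG2 cells received 2500 µM NaB and Hep3B cells 1700 µM NaB, where NaB is sodium pentaborate pentahydrate. Cells of each line were also given 30 µM Cur (curcumin) with 6 µM Pip (piperine), all 3 agents together (combination treatment), or no treatment (control), and every condition lasted 48 h. There was 1 library for each condition of a line, so no difference between conditions within a line has a replicate check, and the NaB dose differed between the lines. The methods state no vehicle for the control, while Cur and Pip were dissolved in DMSO. Of 20 hepatocyte marker genes, 18, 19, 18 and 16 reached 1 FPKM (fragments per kilobase of transcript, scaled to the mapped fragments of the library) in HepG2 after NaB, Cur with Pip, the combination and in the control. In the libraries labelled Hep3B 1, 2, 1 and 3 did, in the same order; ALB (serum albumin) was at 1.98 FPKM in the control, AFP (alpha-fetoprotein) was at 0.615 FPKM after Cur and Pip and 0.527 FPKM in the control, and no transcript was assigned to either in the others. VTN (vitronectin) was the highest of the list, at 8.47, 5.86 and 5.36 FPKM after NaB, Cur with Pip, and the combination, against 18.5 FPKM in the control. Apart from VTN, the listed hepatocyte markers were thus at or under 1.98 FPKM in these 4, which are called the libraries labelled Hep3B throughout.

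Alkaline phosphatases are zinc enzymes that sit on the outer face of the plasma membrane through a glycosylphosphatidylinositol (GPI) anchor and remove phosphate groups from small molecules, nucleotides and lipopolysaccharide. ALPL, the tissue-nonspecific enzyme, is the member made by liver, bone and kidney, where it cleaves pyrophosphate and pyridoxal phosphate. ALPI is the enzyme of the brush border of the small intestine, ALPP that of the placenta and ALPG that of germ cells, and ALPP and ALPG are also known from tumours that make them outside these tissues.

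ALPP, ALPG and ALPI lie in this order on the plus strand of chromosome 2 in GRCh38, at chr2:232378724-232382889, chr2:232406844-232410714 and chr2:232456125-232460753. The gaps between them are 23954 and 45410 bases. Each has 11 exons. ALPL lies on the plus strand of chromosome 1, at chr1:21509397-21578410, and its main transcript has 12 exons. Because the cluster genes are close copies, exon 4 is shown, which carries the codon of the catalytic serine and shows how a level can be told apart between copies. Its 175 coding bases are from chr2:232456899-232457073 (ALPI), chr2:232379513-232379687 (ALPP) and chr2:232407594-232407768 (ALPG) of GRCh38, plus strand, 5′ to 3′, with the exon limits of GENCODE release 44, and the capitals mark the 12 positions where the 3 genes are not all alike.
ALPI exon 4: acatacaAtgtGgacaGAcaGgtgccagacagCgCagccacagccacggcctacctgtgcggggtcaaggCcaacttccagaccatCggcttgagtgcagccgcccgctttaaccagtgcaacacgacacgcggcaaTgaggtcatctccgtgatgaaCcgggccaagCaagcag
ALPP exon 4: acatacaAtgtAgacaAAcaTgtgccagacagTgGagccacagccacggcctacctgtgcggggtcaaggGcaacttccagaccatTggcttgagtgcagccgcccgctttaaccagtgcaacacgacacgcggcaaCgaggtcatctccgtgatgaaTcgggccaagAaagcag
ALPG exon 4: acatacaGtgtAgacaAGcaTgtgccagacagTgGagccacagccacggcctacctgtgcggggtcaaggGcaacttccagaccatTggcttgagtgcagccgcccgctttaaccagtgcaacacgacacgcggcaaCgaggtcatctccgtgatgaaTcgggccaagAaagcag

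In this exon ALPI differed from ALPP at 10 positions and from ALPG at 12, whereas ALPP and ALPG differed at 2. Over the whole mRNA, the identity of aligned bases was 80.6% between ALPI and ALPP, 84.3% between ALPI and ALPG and 91.1% between ALPP and ALPG, and 58.8 to 59.8% between ALPL and each of them. What short reads can separate depends on stretches without any difference. No window of 100 or 150 nt of the ALPI mRNA was found unchanged in another member, and 1.19% of its windows of 50 nt were. ALPP shared 7.64% of its windows of 150 nt with ALPG, and ALPG shared 8.49% of its own with ALPP. The longest identical stretch was 339 nt between ALPP and ALPG, 75 nt between ALPI and ALPP and 60 nt between ALPI and ALPG. At a read length of 150 nt a read within the ALPI mRNA therefore differs from every other member, while part of the ALPG and ALPP reads cannot be told apart.

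**Figure D1:**
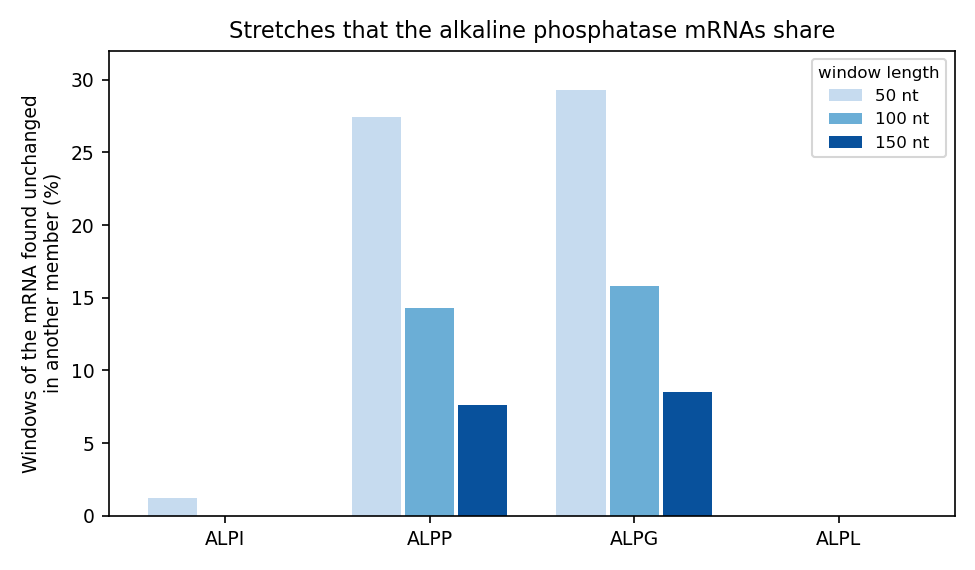
Share of windows of each mRNA (y axis, percent of all windows of that length) that occur unchanged in the mRNA of any other alkaline phosphatase gene, for windows of 50, 100 and 150 nt (bar colours). ALPP and ALPG share 27.4 and 29.3% of their windows of 50 nt, ALPI shares 1.19%, and ALPL shares none.

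ALPI was at 15.2 FPKM after NaB, 90.3 FPKM after Cur with Pip and 26.3 FPKM after the combination in the libraries labelled Hep3B, against 485.8 FPKM in their control. All treated libraries were lower than the control, and the Cufflinks ranges of the 4 libraries did not overlap. The ranges were 14.1 to 16.4, 85.1 to 95.6 and 24.7 to 27.8 FPKM after NaB, Cur with Pip, and the combination, and 467 to 504 FPKM in the control. They hold the estimation error within a library alone, since there was 1 library per condition; whether the RNA isolated in triplicate was pooled is not stated. In order of level, ALPI was the 4653rd, 932nd and 3114th gene after NaB, Cur with Pip, and the combination, and the 119th in the control, of 12216 to 13031 genes listed per library. In HepG2 no transcript was assigned to ALPI in any of the 4 libraries.

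ALPP, the placental enzyme, was the most abundant member in every library labelled Hep3B. It was at 628.9 FPKM after NaB, 667.0 FPKM after Cur with Pip and 329.2 FPKM after the combination, against 2789 FPKM in the control, where it was the 6th gene by level. The ranges after NaB (603 to 655 FPKM) and after Cur and Pip (651 to 683 FPKM) overlapped, and those of the combination (321 to 338 FPKM) and of the control (2674 to 2905 FPKM) stood apart from both. In HepG2 ALPP was at 1.65 FPKM after the combination, from 2 partial transcripts, and no transcript was assigned to it after NaB, after Cur and Pip or in the control.

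ALPG, the germ cell enzyme, had no transcript in the libraries labelled Hep3B after NaB, after Cur and Pip or after the combination, against 46.4 FPKM in their control. That control is thus the single library labelled Hep3B that lists ALPG, with 1 transcript that holds all 10 annotated introns. Its level there was 1.66% of that of ALPP, with which ALPG shares identical stretches, and the part of ALPP reads in it was not tested. No fold is given for it, since the treated libraries list it at 0 and a 0 can be a transcript that was not assembled. ALB shows this: the HepG2 control lists it at 0, beside 7518, 2998 and 2989 FPKM after NaB, Cur with Pip, and the combination in HepG2. Of long transcripts (1 to 4 kb), 1% were listed below 0.162 to 0.222 FPKM in each library. In HepG2 ALPG was at 0.904 FPKM after Cur and Pip, against 0.507 FPKM in the control, and had no transcript after NaB or after the combination. Both HepG2 values rest on low depth, with a median over exons 2 to 10 of 4.66 per base after Cur and Pip and 5.85 per base in the control, and their ranges of 0.560 to 1.25 FPKM after Cur and Pip and 0.345 to 0.670 FPKM in the control overlapped.

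ALPL, the member that liver is known for, was low throughout. In HepG2 it was at 0.638 FPKM after NaB and 0.337 FPKM after Cur and Pip, against 0.699 FPKM in the control, and it had no transcript after the combination. The ranges of the 3 libraries overlapped, from 0.430 to 0.846 FPKM after NaB and 0.134 to 0.540 FPKM after Cur and Pip, and from 0.360 to 1.04 FPKM in the control. After NaB 1 of the 2 ALPL transcripts of HepG2 held all 11 annotated introns, whereas 2 were found after Cur and Pip and 7 in the control. No sense transcript was assigned to ALPL in any library labelled Hep3B. In bulk RNA, fewer cells that express a gene and less RNA per cell cannot be told apart, for these and all values below.

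**Figure D2:**
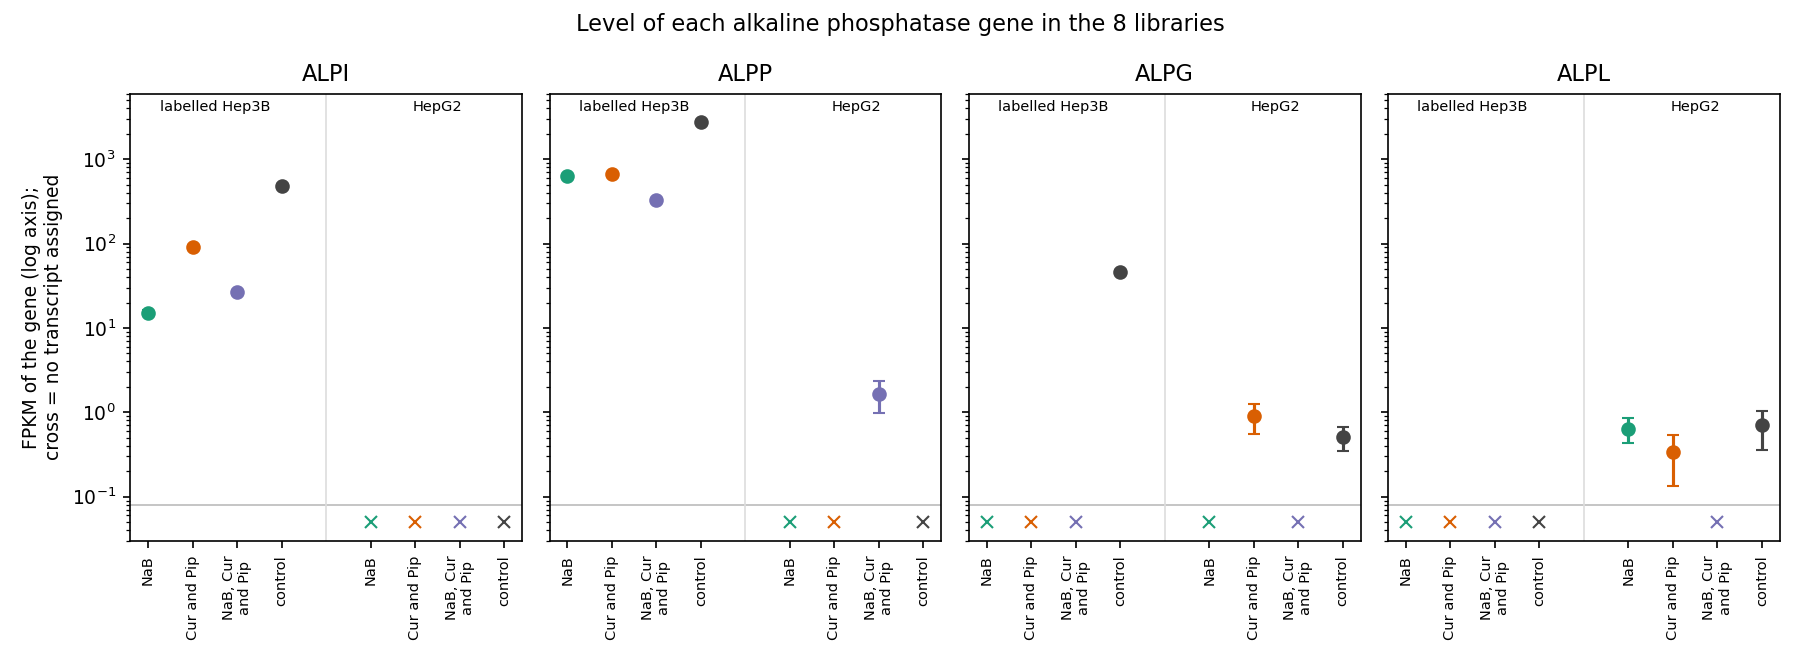
FPKM of ALPI, ALPP, ALPG and ALPL (1 panel each, log axis) in the 4 libraries labelled Hep3B and the 4 HepG2 libraries, 1 point per library; bars are ranges built from the Cufflinks intervals of the transcripts, and crosses under the line mark libraries with no assigned transcript. In the libraries labelled Hep3B ALPI and ALPP are lower in all 3 treated libraries than in the control and ALPG is listed in the control alone, while HepG2 values of any member stay at or under 1.65 FPKM.

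Changes were given as log2((FPKM + 1) treated / (FPKM + 1) control), past the threshold when over 1.5 in absolute value, the fold limit of the study's methods. Under the Hep3B label 3 of the 4 members reached 1 FPKM in 1 or more libraries, and 2 of these, ALPI and ALPP, were listed in treated and control libraries; both were past −1.5 after each treatment. Among all genes listed in both libraries of a comparison, 4.1% were past −1.5 after NaB, 1.42% after Cur with Pip and 4.52% after the combination. With genes listed in 1 of the libraries included, the shares were 7.01, 3.95 and 8.17%. ALPI was chosen on these contrasts, so nothing is read from its count. The share of transcripts with a single exon was 19.1, 22.4 and 28.4% after NaB, Cur with Pip, and the combination, against 14.7% in the control, and the part of this in the changes was not tested. All 3 comparisons share 1 control library, and a deviation of that library would enter each of them.

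The log2 fold change of ALPI was −4.91 after NaB (−5.07 to −4.75 from the Cufflinks bounds), −2.41 after Cur with Pip (−2.55 to −2.28) and −4.16 after the combination (−4.29 to −4.02). Without the pseudocount, the level in the control was 31.9, 5.38 and 18.5 times that after NaB, Cur with Pip, and the combination. Ordered from the lowest log2 fold change, ALPI was the 2nd of 11084 genes after NaB, the 31st of 11402 after Cur with Pip and the 8th of 11062 after the combination. The median over the same genes was −0.16, −0.02 and −0.09. Since ALPI was chosen by its fall in these contrasts, its ranks and its distance from the median are a description.

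For ALPP the log2 fold change was −2.15 after NaB (−2.27 to −2.03), −2.06 after Cur with Pip (−2.16 to −1.97) and −3.08 after the combination (−3.18 to −2.98). Without the pseudocount, the level in the control was 4.44, 4.18 and 8.47 times that after NaB, Cur with Pip, and the combination. It ranked 109th, 53rd and 34th from the lowest. With the depth of each transcript apportioned over the annotated exons, the ALPP change was −1.39 after NaB and −1.45 after Cur and Pip, short of the threshold, and −2.53 after the combination. With transcripts that lie in the gene by at least 80% alone it was −3.97 after Cur with Pip and −4.38 after the combination, and could not be given after NaB.

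On the summed levels ALPI reached 2.42% of the ALPP level after NaB, 13.5% after Cur with Pip and 7.99% after the combination, against 17.4% in the control. This order depends on which ALPP transcripts are counted, an alternative chosen after seeing the data: with transcripts that lie in the gene by at least 80% alone, ALPI was at 51.1% of ALPP after Cur with Pip and 19.7% after the combination, both above the 17.4% of the control. The 80% limit left out ALPP transcripts that ran past the annotated end. With the largest transcript of each gene alone the shares were 1.51, 37.7 and 19.7% after NaB, Cur with Pip, and the combination. The control was at 15.3%, so that 2 of the 3 treated libraries again lay above it. With the depth apportioned over the annotated exons the shares were 1.62, 9.39 and 6.5%, all below the 25.1% of the control. With multi-exon transcripts alone they were 2.42, 11.5 and 7.99%, all below the 17.4% of the control. The combination left ALPI at 1.73 times its level after NaB alone, with ranges that did not overlap, while ALPP after the combination was 0.523 times its level after NaB. Against Cur and Pip alone the log2 difference of the combination was −1.74 for ALPI and −1.02 for ALPP. For ALPP the largest transcript alone gave 0.212 times the level after NaB and −0.60 against Cur and Pip, and the 80% share gave −0.41 against Cur and Pip. The sum of the 2 single changes, in which the control enters both times, was −7.32 for ALPI beside −4.16 for the combination, and −4.21 for ALPP beside −3.08.

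**Figure D3:**
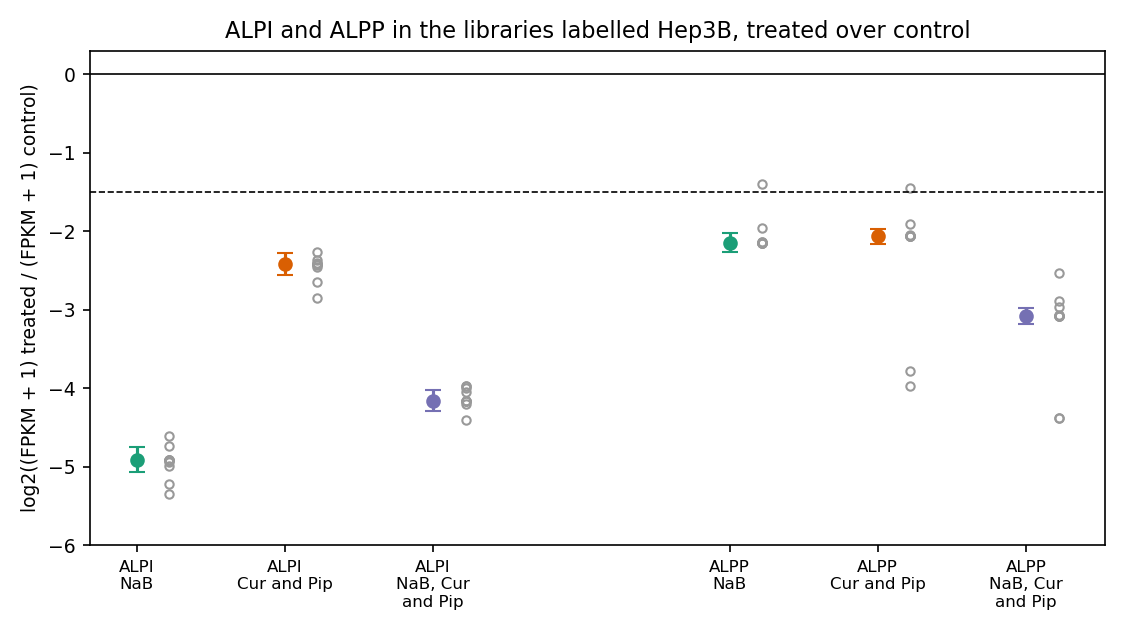
Log2 fold change of ALPI and ALPP (treated over control, FPKM + 1) after each treatment in the libraries labelled Hep3B; filled points are the reported values with ranges from the Cufflinks bounds, open circles the values under the alternative ways of processing, and the dashed line the threshold of −1.5. All values are below 0, and 2 values of ALPP, −1.39 after NaB and −1.45 after Cur and Pip, lie above the threshold line.

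A fit over both lines (limma on log2(FPKM + 1), cell line as a term, 15447 genes, 3 residual degrees of freedom) tested ALPP, with a gene without a transcript entered at 0. ALPI was left out, since it was chosen on the same contrasts, and ALPL did not reach 1 FPKM. ALPG reached 1 FPKM in the control labelled Hep3B alone and drops out of the fit without that library, so its direction was fixed by the filter and no estimate is given for it. The shared log2 change of ALPP was −1.07 ± 1.02 after NaB, −1.03 ± 1.02 after Cur with Pip and −0.84 ± 1.02 after the combination (SE), with limma adjusted p = 0.938, 0.752 and 0.730. ALPP did not pass an adjusted p of 0.05 after any treatment, for which 0 (NaB), 0.00647 (Cur and Pip) and 0.0518% (combination) of all genes were called lower; after NaB limma made 0 calls in either direction, with 726 genes at an unadjusted p under 0.05. Without the control labelled Hep3B the ALPP estimate turned to 0.38, 0.42 and 0.61, and with a pseudocount of 0.1 it turned to 0.53 after the combination. ALPP had no transcript in 3 of the 4 HepG2 libraries, and HepG2 entered at 0 after NaB, after Cur and Pip and in the control. The fit counts that difference between the lines as spread, so its adjusted p cannot decide on ALPP in the libraries labelled Hep3B. A change shared by both lines was not shown by this fit, and a difference between the lines was not tested.

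Transcripts were assigned within the chromosome 2 cluster by their position on the genome. None of the assembled transcripts given to a member had a base in the exons of another member. With gaps of 23954 and 45410 bases between the genes, this is largely given by position. Whether reads of a gene were placed on its copy was not tested. In each library labelled Hep3B 1 transcript of ALPI held all 10 annotated introns of the gene. This transcript was at 9.51 FPKM after NaB, 76.5 FPKM after Cur with Pip and 26.3 FPKM after the combination, against 425.5 FPKM in the control. The other ALPI transcripts were 1 with 9 of these introns after NaB (5.72 FPKM) and 1 in the control (60.4 FPKM), and a single-exon piece of 358 nt in the last exon after Cur and Pip (13.8 FPKM). The ALPI transcript with all 10 introns was thus lower in each treated library, as was the sum. It stopped 951, 921 and 976 nt short of the annotated end after NaB, Cur with Pip, and the combination, and 549 nt short in the control. After NaB it held 11 introns, so its form was not the same in every library.

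The ends of the ALPP transcripts differed between libraries. In the control labelled Hep3B the only ALPP transcript stopped 1131 nt short of the annotated end, whereas ALPP transcripts after NaB, Cur with Pip, and the combination ran 1504, 1531 and 1450 nt past it. This held for the only transcript after NaB and for 3 of 4 after Cur with Pip and after the combination. The remaining ones, at 176.8 FPKM after Cur with Pip and 133.2 FPKM after the combination, stopped 976 and 952 nt short of the end. FPKM divides by the assembled length, and Cufflinks gives a transcript 1 depth over its whole length, so these ends move both. The depth given to exons 2 to 10 was 6736, 7327 and 4151 per base after NaB, Cur with Pip, and the combination, against 30644 per base in the control. For ALPI the same depth was 163.1, 840.4 and 331.4 per base, against 5336 per base in the control. Over the last exon, ALPP had 6736 per base after NaB, 5896 after Cur with Pip and 3003 after the combination, against 5764 in the control. Over the last exon of ALPP the libraries after NaB and after Cur and Pip were thus not lower than the control, whose transcript ends inside that exon, and apportioning the depth over the annotated length gives the smaller ALPP changes above.

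**Figure D4:**
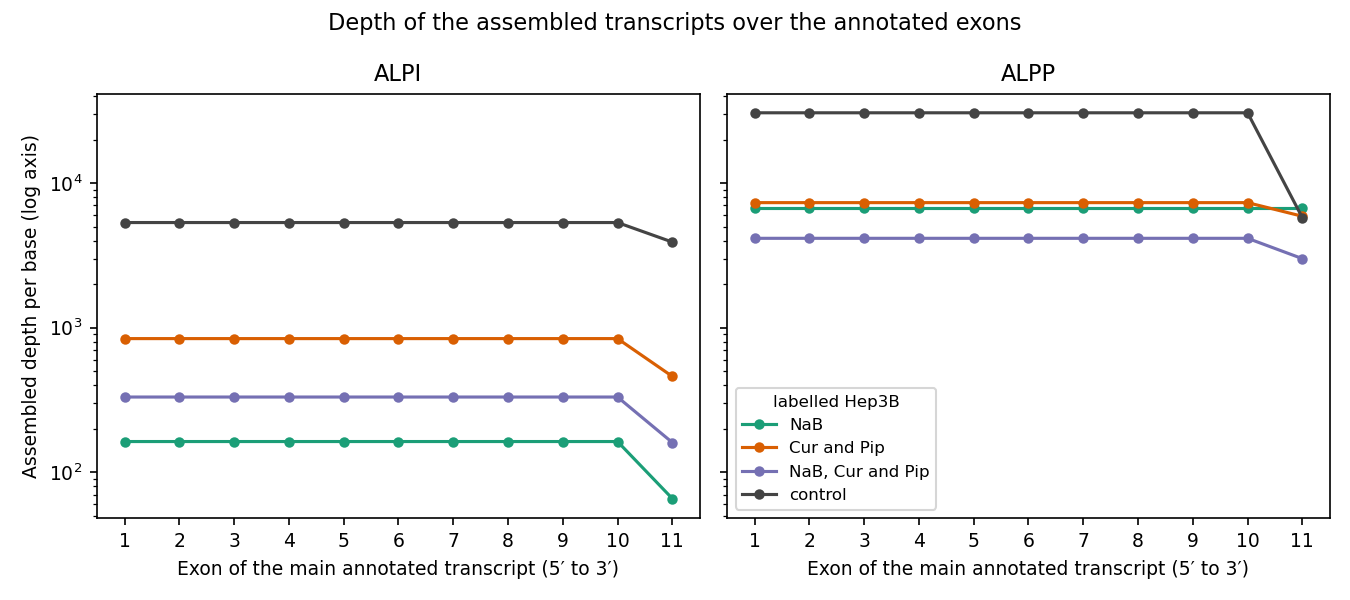
Depth per base (log axis) that the assembled transcripts give to each of the 11 exons of ALPI (left) and ALPP (right) in the 4 libraries labelled Hep3B, 1 line per library. Each transcript carries 1 depth, so exons 1 to 10 are level; the control lies highest over exons 1 to 10 of both genes, and over exon 11 of ALPP it falls to 5764, below the 6736 after NaB and the 5896 after Cur and Pip.

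The bases before each start are shown because the 3 cluster genes were highest in the same library. They are the 250 bases upstream of the RefSeq start in GRCh38.p14, plus strand, 5′ to 3′, at chr2:232455903-232456152 (ALPI), chr2:232378501-232378750 (ALPP) and chr2:232406594-232406843 (ALPG), and the capitals mark TTTAAA and GGGCGG.
ALPI upstream: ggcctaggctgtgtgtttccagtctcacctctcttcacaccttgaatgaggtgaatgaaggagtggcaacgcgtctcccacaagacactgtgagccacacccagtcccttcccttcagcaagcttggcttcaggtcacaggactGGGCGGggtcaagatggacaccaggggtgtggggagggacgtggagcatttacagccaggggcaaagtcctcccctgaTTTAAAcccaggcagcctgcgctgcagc
ALPP upstream: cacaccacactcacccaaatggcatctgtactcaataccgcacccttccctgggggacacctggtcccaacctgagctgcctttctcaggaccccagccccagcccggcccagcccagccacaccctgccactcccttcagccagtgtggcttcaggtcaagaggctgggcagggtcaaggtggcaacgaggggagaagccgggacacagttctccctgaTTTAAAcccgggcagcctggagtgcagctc
ALPG upstream: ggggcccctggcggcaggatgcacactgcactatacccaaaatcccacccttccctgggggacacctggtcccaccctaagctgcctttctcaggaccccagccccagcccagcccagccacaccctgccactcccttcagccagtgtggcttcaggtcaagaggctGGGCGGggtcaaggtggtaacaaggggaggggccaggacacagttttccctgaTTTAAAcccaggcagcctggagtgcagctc

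TTTAAA, an A and T rich stretch that reads alike on both strands, lay 28 bases before the start of ALPI and 30 bases before those of ALPP and ALPG. It occurred in 11.3% of 35116 RefSeq promoter windows of this length. GGGCGG, searched on both strands, the core of a GC box, lay 106 bases before the start of ALPI and 83 bases before that of ALPG. No match was found in the ALPP window, and 42.6% of all windows held it. CACCC, a motif that KLF factors are known to bind, was found on 1 strand or the other in all 3 windows and in 54.7% of all windows. Of 244 aligned bases upstream of ALPP and ALPG 214 were identical (87.7%), against 65.4% between ALPI and ALPP and 64.1% between ALPI and ALPG. The assembled ALPP transcripts of the libraries labelled Hep3B began 31 to 519 nt before the GENCODE gene start, and the multi-exon ALPI transcripts 31 to 64 nt before theirs. For ALPP and ALPI the GENCODE start (chr2:232378724 and chr2:232456125) lies before the RefSeq start from which the motif distances are counted. These assembled transcripts thus began before the TTTAAA of their gene. A match of letters is a description of the sequence, and binding was not measured.

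Genes that make or load the GPI anchor, which all alkaline phosphatases need to reach the cell surface, were looked at next. Of 29 such genes 22, 23 and 20 were listed in both libraries after NaB, Cur with Pip, and the combination in the libraries labelled Hep3B. Of these 3, 0 and 4 were past −1.5, beside 4.1, 1.42 and 4.52% of all genes listed in both libraries, and none was past 1.5. The median log2 fold change was −0.50, −0.03 and −0.43, beside −0.16, −0.02 and −0.09 over all genes. DPM3, a subunit of the enzyme that makes dolichol-phosphate mannose, was at 31.0, 88.7 and 47.3 FPKM, against 170.3 FPKM in the control. PIGV, a mannosyltransferase of the anchor, was at 2.33, 6.41 and 2.67 FPKM, against 10.6 FPKM. PIGQ, part of the complex of the opening step, was at 12.4, 15.6 and 6.27 FPKM, against 21.7 FPKM. Among the genes listed in both libraries these 3 were the lowest after the combination, with log2 fold changes of −1.83, −1.66 and −1.64. Of the genes listed in both, PIGA, the catalytic subunit of the opening step (0.63), and PGAP1, which remodels the anchor (0.32), were the highest. DPM1, the catalytic subunit of the mannose donor enzyme, followed (0.13). With genes listed in 1 of the libraries included, 5, 1 and 8 of 25 were past −1.5. The shares of all genes were 7.01, 3.95 and 8.17%. Past 1.5 were 0, 1 and 1 of these 25. GPAA1, a subunit of the transamidase that attaches the anchor, was at 94.4 FPKM in the control and 40.9 FPKM after Cur and Pip. It had no transcript after NaB or after the combination, and a 0 can be a transcript that was not assembled.

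In HepG2, where hardly any alkaline phosphatase transcript was found, 25, 24 and 22 genes of the GPI list were listed in both libraries. After NaB, after Cur with Pip and after the combination 0, 2 and 1 were past −1.5, against 1.79, 7.24 and 7.29% of all genes. Their median log2 fold change was −0.12, −0.58 and −0.53, beside 0.01, −0.02 and −0.02 over all genes listed in both libraries. Among the genes listed in both libraries, the lowest after the combination was GPAA1, at 7.89 FPKM, against 25.7 FPKM in the control (−1.59). PGAP2, which remodels the anchor, and PIGS, another transamidase subunit, followed with −1.35 and −1.24. PIGC of the opening step was the highest (0.83), before MPPE1 (0.52) and PIGG (0.45), which trim and add ethanolamine phosphate.

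Zinc reaches alkaline phosphatases through the transporters SLC30A5, SLC30A6 and SLC30A7 of the secretory pathway. None of the 3 passed the threshold in either line. In the libraries labelled Hep3B SLC30A5 was at 11.2, 33.5 and 19.1 FPKM after NaB, Cur with Pip, and the combination, against 16.8 FPKM in the control. SLC30A6 was at 16.4, 10.9 and 12.3 FPKM, against 8.43 FPKM, and SLC30A7 at 2.64, 2.71 and 4.11 FPKM, against 2.62 FPKM. In HepG2 the log2 fold changes of the 3 genes after the combination were −1.22, −0.54 and −0.24.

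Of 7 genes that handle phosphate and pyrophosphate, the products and substrates of these enzymes, none listed in both libraries passed the threshold in the libraries labelled Hep3B. ANKH, which is known for pyrophosphate release, was at 76.1, 63.6 and 32.8 FPKM after NaB, Cur with Pip, and the combination, against 88.9 FPKM in the control. SLC20A1, a phosphate importer, was at 68.1, 40.1 and 61.2 FPKM, against 30.8 FPKM. The log2 fold changes after the combination were −1.41 for ANKH and 0.97 for SLC20A1, both within the threshold. ENPP1, which makes pyrophosphate outside the cell, was between 0.597 and 1.84 FPKM in these 4 libraries, and PHOSPHO1, a phosphatase of bone mineralization, was at 0.505 FPKM after the combination, against 1.59 FPKM in the control. SLC20A2 and NT5E changed by 0.11 and −0.07 after the combination. In HepG2, SLC20A1 was past the threshold after Cur and Pip, at 211.5 FPKM, against 61.9 FPKM in the control (1.76). ABCC6 was past the threshold after the combination in HepG2, at 7.41 FPKM, against 28.9 FPKM (−1.83).

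Pyridoxal phosphate is a substrate of ALPL. PDXK, a kinase of vitamin B6 metabolism, was at 39.4, 90.9 and 35.0 FPKM after NaB, Cur with Pip, and the combination in the libraries labelled Hep3B, against 42.6 FPKM in the control. PDXP, a cytosolic phosphatase of this vitamin, was at 27.0, 33.0 and 33.9 FPKM, against 25.4 FPKM. Neither was past the threshold in these libraries. In HepG2 PDXK was past it after Cur and Pip, at 57.2 FPKM, against 17.7 FPKM in the control (1.64), and PDXP was not (−1.20).

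Of 6 other genes of ectophosphatases and ectonucleotidases that were followed, 2 were listed in the libraries labelled Hep3B. ENTPD2, an ectonucleotidase, was at 0.990 FPKM after Cur and Pip, against 1.07 FPKM in the control, and had no transcript after NaB or after the combination. ACP3, an acid phosphatase, was at 0.435 FPKM after Cur and Pip, against 0.422 FPKM in the control. In HepG2 ENPP3, which cleaves nucleotides, was at 8.31, 1.92 and 9.27 FPKM after NaB, Cur with Pip, and the combination, against 11.6 FPKM in the control. Only the value after Cur and Pip was past the threshold among these 3 (−2.11).

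The 5 factors below are known to act on ALPI in intestinal cells. CDX1 and CDX2, the homeobox factors of the intestine, had no transcript in any of the 8 libraries. KLF4, a zinc finger factor that activates ALPI in intestinal cells, was at 7.46, 9.70 and 17.9 FPKM after NaB, Cur with Pip, and the combination in the libraries labelled Hep3B, against 4.30 FPKM in the control. Its log2 fold change was past the threshold after the combination (1.84) and not after NaB (0.67) or Cur and Pip (1.01). ZNF148, a zinc finger factor reported as its partner, was at 7.54, 6.47 and 15.4 FPKM, against 5.82 FPKM (1.27 after the combination). KLF4 was above the control in all 3 treated libraries, each set against the same control library, and a link to ALPI was not tested. HNF4A, a nuclear receptor of liver and gut, was at or under 0.566 FPKM in the libraries labelled Hep3B. In HepG2 it was at 89.0, 26.7 and 25.3 FPKM after NaB, Cur with Pip, and the combination, against 70.7 FPKM in the control, and KLF4 was at 1.17, 7.33 and 9.84 FPKM, against 0.404 FPKM, with no ALPI transcript in any of these.

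**Figure D5:**
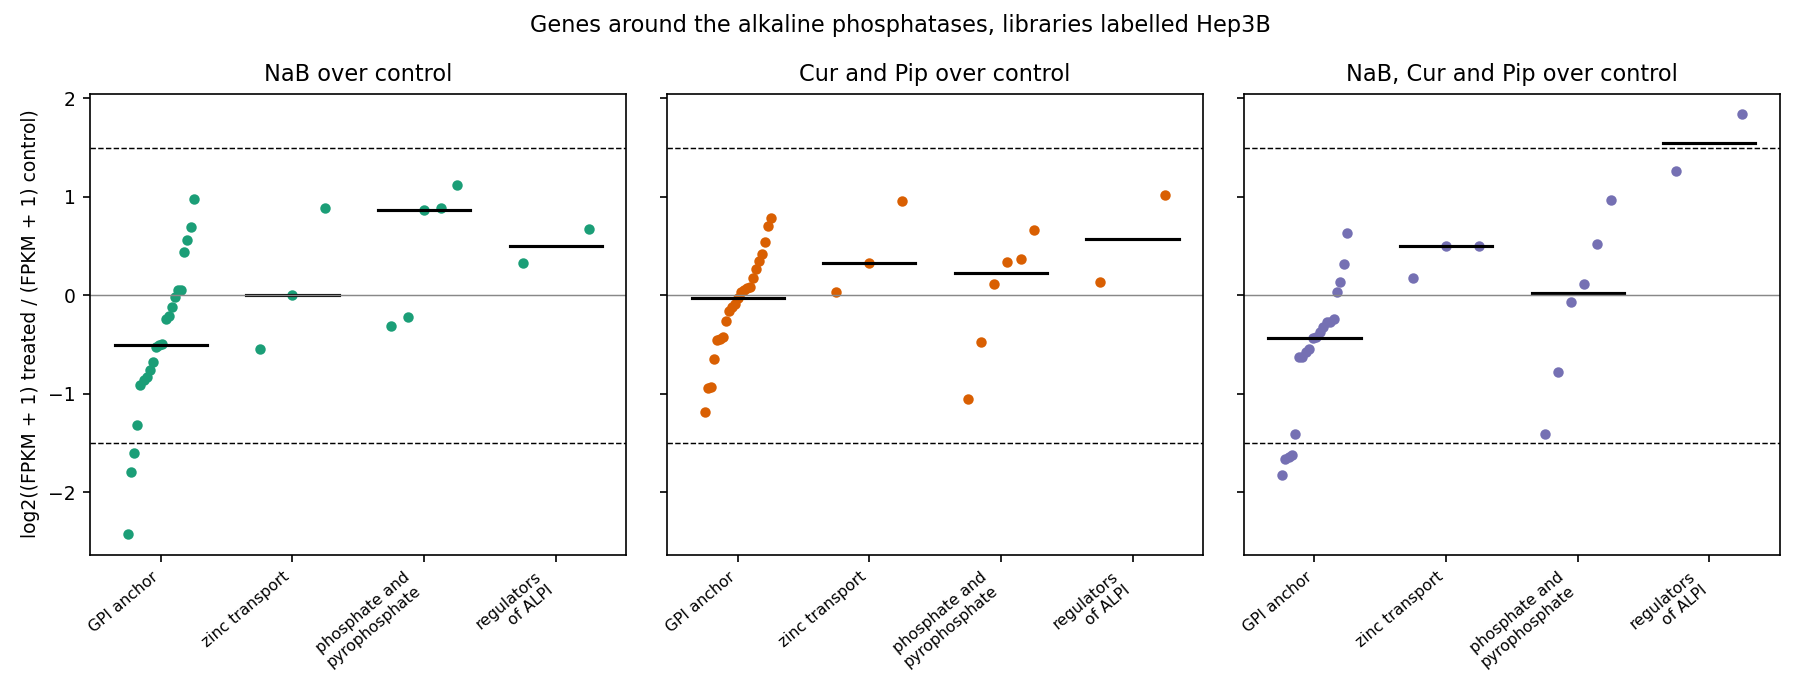
Log2 fold change (treated over control, FPKM + 1) of each gene listed in both libraries, for 4 groups of genes around the alkaline phosphatases, in the libraries labelled Hep3B (1 panel per treatment); points are genes, black bars medians, dashed lines the threshold of 1.5 in each direction. In the GPI anchor group 3, 0 and 4 genes lie past −1.5 after NaB, Cur with Pip, and the combination, and KLF4 lies past 1.5 after the combination.

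The tissues that normally make ALPI, ALPP and ALPG were checked by their own markers. Of 12 markers of the intestinal epithelium MUC13, a mucin, was the 1 listed in the libraries labelled Hep3B, at 1.68, 1.16 and 1.52 FPKM after NaB, Cur with Pip, and the combination, against 0.182 FPKM in the control. CDX2, SI, FABP2 and VIL1 were among those with no transcript there. Of 10 trophoblast markers 2, 3 and 4 reached 1 FPKM after NaB, Cur with Pip, and the combination, and 3 in the control, with summed levels of 747, 424 and 410.2 FPKM, against 659.7 FPKM. KRT7, a keratin of many epithelia, made up most of the sum, at 687, 352 and 359 FPKM, against 564.5 FPKM. TFAP2A, an AP-2 factor, was at 59.7, 50.7 and 30.5 FPKM, against 74.4 FPKM, and TEAD4 was at 20.1 FPKM after Cur with Pip and 19.3 FPKM after the combination, against 20.4 FPKM, with no transcript after NaB. Of the same list CGA, ELF5, ERVW-1, HSD3B1 and CYP19A1 had no transcript, and GATA3 stayed at or under 0.737 FPKM. The trophoblast markers thus went both ways, and no cell type is read from them. Of 7 markers of pluripotent and germ cells PRDM1 was at 4.37, 6.91 and 3.86 FPKM, against 6.52 FPKM in the control, and NANOG, LIN28A, SALL4 and DPPA4 had no transcript. POU5F1, a pluripotency factor, was at 1.11 FPKM after the combination and TFAP2C, an AP-2 factor, at 0.588, 0.301 and 1.04 FPKM after NaB, Cur with Pip, and the combination, with no transcript of either in the control. Thus 1, 1 and 3 of the 7 reached 1 FPKM, against 1 in the control. Summed levels of that list were 4.96, 7.21 and 6.01 FPKM, against 6.52 FPKM. Of 6 osteoblast markers BGLAP and COL1A1 reached 1 FPKM in each library labelled Hep3B, with no transcript of SP7 or IBSP. The part of other cells in the alkaline phosphatase levels was not tested.

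Genes beside the cluster were read for the same libraries. DIS3L2, an exonuclease gene that ends 34374 bases before ALPP, was at 5.97, 8.32 and 5.17 FPKM after NaB, Cur with Pip, and the combination, against 12.7 FPKM in the control (−0.97, −0.55 and −1.15). PRSS56, a protease gene 59635 bases beyond ALPI, was at 1.09, 1.92 and 0.607 FPKM, against 5.84 FPKM (−1.71, −1.23 and −2.09). PRSS56 was thus past the threshold after NaB and after the combination, and DIS3L2 was not past it after any treatment. EIF4E2, a cap-binding protein gene 89906 bases beyond ALPI, was at 57.6, 50.7 and 71.6 FPKM, against 66.5 FPKM, and GIGYF2, which encodes its partner, was at 16.4, 12.3 and 8.07 FPKM, against 8.82 FPKM. ECEL1 and EFHD1 were listed in the control labelled Hep3B alone, at 0.226 and 0.504 FPKM, CHRND and CHRNG had no transcript in any library, and TIGD1 was listed in 1 library labelled Hep3B, at 2.86 FPKM after NaB. The lower levels were thus not seen in every gene of the region.

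Among 8891 protein-coding genes with a transcript in each library labelled Hep3B and at least 5 FPKM in 1 or more libraries, the levels most like those of ALPI over the 8 libraries included those of DHRS1, FOLR1, TLE2 and SLC12A3, among the 5 highest, with Pearson r from 0.996 to 0.997 on log2(FPKM + 1). None of these 4 had a transcript in HepG2, and the correlations rest largely on that contrast of the lines. FOLR1, a folate receptor with a GPI anchor, was at 2.49, 7.68 and 2.79 FPKM after NaB, Cur with Pip, and the combination, against 13.8 FPKM in the control labelled Hep3B. ALPP was the 155th gene by this measure, with r = 0.957. For ALPL, over 7731 genes with a transcript in all 8 libraries, FBXO25, KREMEN1, NECTIN2, CABLES2 and GPT2 were most alike, with r from 0.961 to 0.986. The ALPL levels behind these r stayed under 1 FPKM and were 0 in 5 libraries, and the libraries of a line share their cells and control.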

How the data were processed

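RNA-seq data of 8 libraries, 1 per condition, were analysed. The authors used a directional kit, STAR with GRCh38, and Cufflinks on each library; the submitters' notes also name FastQC and Cuffdiff, with tool versions not given in the sources used here. Each deposited file lists assembled transcripts with FPKM, its 95% interval and coverage, and names no gene. A transcript went (bedtools 2.31.1) to the same-strand gene of GENCODE release 44 holding 50% or more of its exonic bases; this placed 70.4 to 88.1% of transcripts, and FPKM was summed per gene; the range of a gene combines the interval widths of its transcripts as a root of summed squares. The files hold no read counts, and 1 library per condition allows no test within a line. Lists, members and the rule for named genes (members; neighbours within 250 kb; up to 3 highest and 3 lowest genes of each list after the combination; 5 most similar genes) were chosen with earlier results of these data known. Genes were tested at 1 FPKM or more with limma 3.58.1 in R 4.3.3, with Benjamini-Hochberg adjustment. Windows and alignments used Python 3.11.15 and Biopython 1.88; steps were tested on simulated data. Promoters are from RefSeq, matched by symbol for all 4 members, and ALPL promoters are not shown. Alternatives were other pseudocounts, scalings, filters, thresholds and assignments, and each library left out. Results of 2 genes that the rule names are not reported here.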

Additional observations from a re-analysis of the deposited data

How the results depend on the processing

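Of 59 alternative values of the ALPI and ALPP changes in the libraries labelled Hep3B, 59 kept the sign and 57 stayed past −1.5. Of the 59, 37 lay within the Cufflinks range of the reported value and 22 outside. Among the 37 are repeats of the reported value, since a minimum transcript length and the largest share without a minimum left these genes unchanged. ALPI was chosen by its fall, so its kept sign is a description. A pseudocount of 5 gave ALPI −4.60 after NaB and −3.97 after the combination. Median-of-ratios scaling gave ALPI −4.73 and ALPP −1.96 after NaB, and ALPP −2.97 after the combination. TPM gave ALPI −2.26 and ALPP −1.90 after Cur and Pip, and −3.99 and −2.89 after the combination. The largest transcript alone gave ALPI −5.34 after NaB and −3.97 after the combination, and ALPP −3.77 after Cur with Pip and −4.38 after the combination. Multi-exon transcripts alone gave ALPI −2.65 after Cur and Pip. An 80% share gave ALPP −3.97 after Cur with Pip and −4.38 after the combination. Depth apportioned over annotated exons gave ALPI −5.21, −2.85 and −4.41 after NaB, Cur with Pip, and the combination, and ALPP −1.39, −1.45 and −2.53. The cause of these shifts was not tested, except that the apportioned depth is averaged over the annotated length.

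The shared ALPP estimate in the limma fit turned to 0.53 after the combination with a pseudocount of 0.1. With 1 library left out it ran from −2.52 to 0.38 after NaB, from −2.48 to 0.42 after Cur and Pip, and from −2.38 to 0.71 after the combination; it was above 0 without the control labelled Hep3B (all 3 treatments) and, after the combination, also without the library labelled Hep3B of that treatment (0.71). No adjusted p of ALPP fell under 0.05 in any of these fits; it ran from 0.853 to 1 after NaB, 0.667 to 0.999 after Cur with Pip, and 0.532 to 0.946 after the combination. The term for cell line sets each treated library against the control of its own line, so this fit is paired by line; within a line there is 1 library per condition and no pairing of replicates. The Cufflinks ranges hold no spread between cultures, and levels under 1 FPKM rest on low depth.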

Other observations

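Transcripts on the minus strand that were assigned to no gene lay upstream of ALPP in each library labelled Hep3B, between 0.183 and 1.87 FPKM, and were not seen there in HepG2. In the library labelled Hep3B after the combination, a single-exon transcript of 496 nt on the minus strand lay within ALPL at 1.18 FPKM, in a gene with no sense transcript in that library. These levels were not tested.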
